A study of Mus musculus with 18 samples.

Results

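The core circadian clock genes are the 8 genes Arntl (also called Bmal1), Clock, Npas2, Per1, Per2, Per3, Cry1 and Cry2, and they were followed in RNA sequencing of isolated quadriceps myofibers from 18 mice. The genes are a fixed list of names, found by matching the gene identifiers of the count table to mouse symbols, and all 8 of 8 were found among 43430 genes and passed the filter on low counts that left 13596 genes. The list was selected on measured values of these libraries, in that the differences of its genes between prednisone and vehicle were known when it was drawn up. Those differences, and the differences between the sexes computed from them, are therefore a description: they are given with their standard errors and no p value. Whether edgeR called a gene is stated beside the share of all genes called, and nothing is read from it.

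Each library came from 1 C57BL/6 mouse (C57BL/6J in the methods), and the 6 groups of 3 libraries were male vehicle, male weekly prednisone, male daily prednisone, female vehicle, female weekly prednisone and female daily prednisone. Prednisone is a synthetic glucocorticoid. Per the study's methods, mice were 10 weeks old at the start and were treated for 4 weeks with intraperitoneal injections at 7 am under 14 hours of light and 10 hours of dark, with lights on at 6 am. A daily mouse received 1 mg/kg each day, a weekly mouse received 1 mg/kg on 1 day of the week and vehicle on the other days, with its last dose 2 days before death, and vehicle was DMSO in phosphate-buffered saline. All groups thus shared the injections and the solvent. The myofibers were the material held back by a strainer after collagenase digestion, so that other cells of the muscle can be present.

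The circadian clock is a transcriptional feedback loop that runs in nearly every cell, muscle fibers included. BMAL1, the product of Arntl, pairs with CLOCK or with the related protein NPAS2 and activates genes that carry E-box elements, among them the Period and Cryptochrome genes. The PER and CRY proteins then enter the nucleus and repress the pair that made them, while REV-ERB and ROR receptors set the level of Arntl in a second loop, and PAR bZIP factors such as DBP act through D-box elements. Glucocorticoids are a known time cue for peripheral clocks, and the Period genes are known targets of the glucocorticoid receptor. The mRNAs of most of these genes rise and fall over the day. By the study's methods, force was measured at 9 am right before the mice were killed. The hour at which the muscle of each library was taken is not given singly, so its part in the differences below was not tested.

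The regulatory elements can be read in the promoters. RefSeq promoter windows on GRCm38.p6 were at hand for 7 of the 8 genes, all but Per2, and the 250 bases before each start site were searched on both strands for an E-box (CACGTG), a D-box (TTATGTAA or TTACGTAA), a REV-ERB and ROR element (TAGGTCA), a glucocorticoid response element (ACANNNTGT) and a cAMP response element (TGACGTCA). The 3 windows that held a match are shown, because E-boxes and D-boxes are the elements through which the loop acts; the Per1 window is 1 of 2. Capitals mark the match, each sequence runs 5′ to 3′ toward the start site, and bases inside an annotated exon are left out.
Per3 promoter, chr4:151044666-151044915, minus strand: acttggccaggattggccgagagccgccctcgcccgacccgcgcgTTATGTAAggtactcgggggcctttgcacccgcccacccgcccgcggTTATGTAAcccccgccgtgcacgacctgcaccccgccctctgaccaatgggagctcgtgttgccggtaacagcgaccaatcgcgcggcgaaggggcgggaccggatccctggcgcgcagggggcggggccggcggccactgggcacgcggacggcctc
Cry1 promoter, chr10:85185065-85185304, minus strand: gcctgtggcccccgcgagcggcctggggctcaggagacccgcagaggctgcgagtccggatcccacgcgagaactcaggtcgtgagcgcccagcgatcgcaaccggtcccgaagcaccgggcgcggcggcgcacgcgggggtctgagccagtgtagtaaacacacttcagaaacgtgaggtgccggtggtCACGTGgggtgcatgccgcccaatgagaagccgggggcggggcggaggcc
Per1 promoter, chr11:69098699-69098947, plus strand: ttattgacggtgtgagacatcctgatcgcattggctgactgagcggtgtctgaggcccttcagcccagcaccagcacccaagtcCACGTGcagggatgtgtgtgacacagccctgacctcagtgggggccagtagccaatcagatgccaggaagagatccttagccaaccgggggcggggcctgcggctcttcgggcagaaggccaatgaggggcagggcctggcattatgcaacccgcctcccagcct
Per3 held 2 D-boxes, which begin at positions -205 and -158 relative to its start site. A D-box was present in 0.931% of all 32851 promoter windows of that length, and 2 or more in 7 windows (0.0213%). Cry1 held an E-box at position -60 and Per1 held one at position -166 from the start site of the window shown, while 6.02% of all windows held an E-box. None of the windows of Arntl, Clock, Npas2 and Cry2 held any of the 5 elements, and no window of a core clock gene held the glucocorticoid response element (5.84% of all windows), the REV-ERB and ROR element (2.23%) or the cAMP response element (1.55%). A match is a match of letters only, and elements outside these 250 bases were not searched.

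Levels are given as CPM, the count of a gene per megaread of the normalized library size. Total counts were 10506661 to 14686654 per library. The 8 genes had between 9 counts (Npas2) and 2657 counts (Per1) in a library, so that Npas2 is the least precisely measured. Summed over 8 markers of muscle fibers, libraries reached 95249 to 175495 CPM with no marker at 0. Of the other cell types, the 10 adipocyte markers differed most between treatments. Their summed level was 606 to 932 CPM in male vehicle, 941 to 1581 in male weekly, 1160 to 2206 in male daily, 961 to 1250 in female vehicle, 1170 to 6330 in female weekly and 1828 to 4148 in female daily libraries, none of the 10 was at 0 throughout a group, and 8 of 10 were called higher in daily than in vehicle libraries over both sexes. Of 5 blood markers, 4 were called lower there. The part of these cells in the results was not tested, apart from the fits with the adipocyte markers as a covariate given below. In tissue of this kind, more cells of a type and more RNA per cell cannot be told apart.

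**Figure D1:**
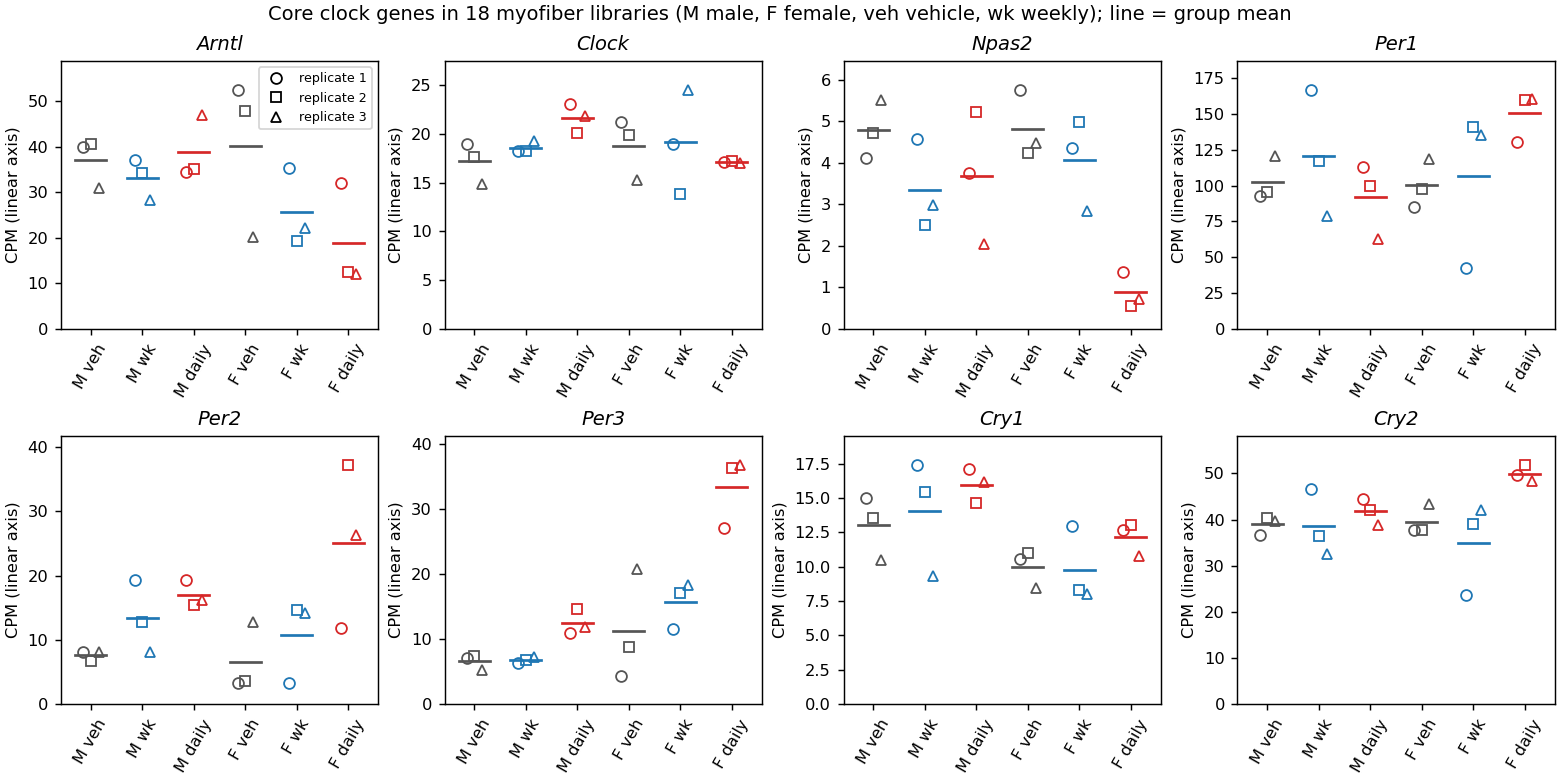
Level of each core clock gene in every library, in CPM on a linear axis that starts at 0, by group (M male, F female, veh vehicle, wk weekly); shapes give the replicate number and lines the group mean of 3 libraries. Npas2 is below 1.4 CPM in all 3 female daily libraries and above 2 CPM in the other 15.

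Between genes, levels can be set side by side only per length. In male vehicle libraries the order by CPM per kilobase of exon was Per1 at 18.3 ± 2.73 (SD, n = 3), Arntl at 12.8 ± 1.85, Cry2 at 6.16 ± 0.315, Cry1 at 4.32 ± 0.760, Clock at 2.30 ± 0.278, Per2 at 1.31 ± 0.131, Npas2 at 0.999 ± 0.146 and Per3 at 0.683 ± 0.123, and no neighbours in this order overlapped between libraries. The length was that in the file for Arntl, Clock and Cry1, and all exons of GENCODE release 21, each base counted once, for the other genes. The places of Arntl and Clock depend on their lengths. With all exons of GENCODE release 21 in place of the lengths in the file, the mean of Arntl was 4.94 CPM per kilobase, below that of Cry2, and that of Clock was 1.25, below that of Per2. In female vehicle libraries Per1 and Arntl led as well but overlapped with each other, and each gene from Cry1 down to Npas2 overlapped with the next. In female daily libraries the order was Per1 at 26.7 ± 3.08, Cry2 at 7.90 ± 0.281, Arntl at 6.48 ± 3.92, Per2 at 4.29 ± 2.18, Cry1 at 4.03 ± 0.405, Per3 at 3.47 ± 0.570, Clock at 2.29 ± 0.0134 and Npas2 at 0.186 ± 0.0903, in which Npas2 lay below all others without overlap and Per3 lay above Clock without overlap. With all exons of release 21, the mean of Arntl was 2.50 in female daily libraries, below those of Per2, Cry1 (3.64) and Per3. In female vehicle libraries it was then 5.34, below that of Cry2 at 6.26.

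The activators were examined first. Arntl (ENSMUSG00000055116, chromosome 7, 113207465 to 113314122, plus strand on mm10) encodes BMAL1, the partner without which the loop does not run. Replicate values are given here and below in the order of the replicate numbers. In males it stood at 39.9, 40.6 and 30.9 CPM in the vehicle libraries, 37.03, 34.2 and 28.4 in the weekly libraries and 34.6, 35.2 and 46.9 in the daily libraries. These 3 groups overlapped. In females it stood at 52.5, 47.8 and 20.1 CPM with vehicle, 35.3, 19.2 and 22.2 with weekly and 31.9, 12.5 and 12.02 with daily prednisone. The 2 lowest of all 18 libraries were female daily replicates 2 and 3, but female daily replicate 1 lay above female vehicle replicate 3, so that the groups overlapped. The difference between daily and vehicle libraries was 0.06 ± 0.37 in males and -1.10 ± 0.38 in females on the log2 scale, where the error is the standard error and each group holds 3 libraries (edgeR). Without female vehicle replicate 3 the female difference was -1.42 ± 0.35, and without female daily replicate 1 it was -1.72 ± 0.35, which edgeR called lower. An antisense gene overlaps 4 exons of Arntl, and the strand setting of the counting is not stated.

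Clock (ENSMUSG00000029238, chromosome 5, 76212177 to 76304548, minus strand) encodes the constant partner of BMAL1 and had the narrowest fold range of the 8 genes, at 13.9 to 24.5 CPM over all libraries. In males it was 18.96, 17.7 and 14.9 CPM with vehicle, 18.2, 18.3 and 19.2 with weekly and 23.1, 20.1 and 21.8 with daily prednisone. The 3 male daily libraries lay above the vehicle and the weekly libraries without overlap, by 0.33 ± 0.17 and 0.22 ± 0.17 on the log2 scale, but with length and GC trends removed the difference from vehicle was -0.06 ± 0.19. In females the daily libraries at 17.1, 17.2 and 17.04 CPM lay within the range of the vehicle libraries at 21.2, 19.9 and 15.2 and of the weekly libraries at 18.97, 13.9 and 24.5, with a difference from vehicle of -0.13 ± 0.17. No comparison called Clock.

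Npas2 (ENSMUSG00000026077, chromosome 1, 39193731 to 39363236, plus strand) encodes the paralog of CLOCK that can take its place. Its level in females was 5.76, 4.24 and 4.48 CPM with vehicle, 4.36, 4.98 and 2.85 with weekly and 1.38, 0.566 and 0.725 with daily prednisone. The 3 daily libraries lay below all other female libraries, with a difference of -2.46 ± 0.38 from vehicle and -2.20 ± 0.38 from weekly on the log2 scale. In males it was 4.13, 4.71 and 5.52 CPM with vehicle, 4.57, 2.50 and 2.997 with weekly and 3.75, 5.22 and 2.06 with daily prednisone. The male groups overlapped, with a daily difference of -0.35 ± 0.34 from vehicle, which was 0.00 with the adipocyte markers as a covariate. Over both sexes the daily libraries differed by -1.41 ± 0.25 from vehicle and by -1.02 ± 0.26 from weekly.

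Within a library, the counts of Npas2 and Clock can be set against each other with no scaling between libraries. The log2 ratio of Npas2 to Clock counts was -1.88, -2.23 and -1.77 in female vehicle, -2.12, -1.48 and -3.10 in female weekly and -3.63, -4.93 and -4.55 in female daily libraries. The female daily libraries held the lowest ratios of all 18. In males the ratio was -2.20, -1.91 and -1.43 with vehicle, -1.99, -2.87 and -2.68 with weekly and -2.62, -1.94 and -3.41 with daily prednisone, and the groups overlapped.

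The Period genes encode the repressors whose mRNAs respond fastest to hormonal cues. Per1 (ENSMUSG00000020893, chromosome 11, 69095217 to 69109960, plus strand) had the highest level per length of the 8 genes in each group named above. In males it was 92.7, 95.2 and 120.5 CPM with vehicle, 167, 117 and 78.8 with weekly and 113, 99.7 and 62.96 with daily prednisone, and the groups overlapped. In females it was 85.02, 97.3 and 118 CPM with vehicle, 42.8, 141 and 135 with weekly and 130.2, 159.9 and 161 with daily prednisone. The 3 female daily libraries lay above the vehicle libraries, but female weekly replicate 2 lay among them and female weekly replicate 1 was the lowest of all 18 libraries. The daily difference from vehicle was -0.16 ± 0.36 in males and 0.58 ± 0.36 in females, and neither was called.

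Per2 (ENSMUSG00000055866, chromosome 1, 91415982 to 91459324, minus strand) spanned the widest fold range of the 3 Period genes in females. In males it was 8.08, 6.77 and 8.12 CPM with vehicle, 19.3, 12.8 and 8.08 with weekly and 19.3, 15.5 and 16.2 with daily prednisone. The male daily libraries lay above the vehicle libraries without overlap, by 1.15 ± 0.58 on the log2 scale, and the weekly libraries reached from the vehicle to the daily level. In females it was 3.22, 3.59 and 12.7 CPM with vehicle, 3.28, 14.6 and 14.2 with weekly and 11.8, 37.2 and 26.3 with daily prednisone. Here female vehicle replicate 3 stood above female daily replicate 1, so that the groups overlapped, with a daily difference of 1.94 ± 0.58. The difference ran from 1.55 without female daily replicate 2 to 2.90 without female vehicle replicate 3. Over both sexes the daily libraries were higher by 1.55 ± 0.41 than vehicle.

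Per3 (ENSMUSG00000028957, chromosome 4, 151003652 to 151044665, minus strand) is the Period gene with the weakest known role in keeping the rhythm. It separated the daily libraries from the vehicle and weekly libraries in both sexes, while vehicle and weekly libraries overlapped. Males had 7.11, 7.36 and 5.21 CPM with vehicle, 6.25, 6.82 and 7.18 with weekly and 10.8, 14.6 and 11.8 with daily prednisone. Females had 4.32, 8.69 and 20.8 CPM with vehicle, 11.5, 17.04 and 18.3 with weekly and 27.03, 36.3 and 36.7 with daily prednisone. In each sex the 3 daily libraries lay above all vehicle and all weekly libraries, and the female vehicle libraries spread over a wider range than any other group. The daily difference from vehicle was 0.92 ± 0.38 in males, 1.57 ± 0.37 in females and 1.24 ± 0.27 over both sexes, and that from weekly was 0.99 ± 0.26 over both sexes. Without female vehicle replicate 3 the female difference from vehicle was 2.38 ± 0.29, which edgeR called higher. The gene is the one whose printed promoter above holds 2 D-boxes. Its span overlaps that of Camta1 on the same strand, with 0 exons of Per3 overlapped by an exon of Camta1.

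The Cryptochrome genes encode the partners of PER in repression. Cry1 (ENSMUSG00000020038, chromosome 10, 85131702 to 85185054, minus strand) is the later and stronger repressor. In males it was 15.01, 13.5 and 10.5 CPM with vehicle, 17.4, 15.5 and 9.34 with weekly and 17.1, 14.6 and 16.2 with daily prednisone, with overlapping groups. In females it was 10.6, 10.97 and 8.42 CPM with vehicle, 13.001, 8.33 and 8.02 with weekly and 12.7, 13.02 and 10.8 with daily prednisone. The daily libraries overlapped with both other groups, and the daily difference from vehicle was 0.29 ± 0.22 in males and 0.28 ± 0.23 in females. Cry2 (ENSMUSG00000068742, chromosome 2, 92403646 to 92434043, minus strand) was 36.7, 40.4 and 39.8 CPM with vehicle, 46.6, 36.4 and 32.5 with weekly and 44.5, 42.1 and 38.8 with daily prednisone in males, with overlapping groups. In females it was 37.7, 37.7 and 43.3 CPM with vehicle, 23.7, 39.1 and 42.2 with weekly and 49.6, 51.8 and 48.3 with daily prednisone. The female daily libraries lay above all vehicle and weekly libraries, by 0.34 ± 0.17 and 0.51 ± 0.17 on the log2 scale, and neither difference was called. An antisense gene with 0 to 7 counts per library overlaps 3 exons of Cry2.

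The log2 ratio of Cry1 to Cry2 counts was lower in the female than in the male daily libraries without overlap, at -1.97, -1.99 and -2.17 against -1.38, -1.52 and -1.26. The vehicle libraries overlapped, at -1.83, -1.78 and -2.36 in females and -1.29, -1.58 and -1.92 in males.

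The calls of the 8 genes are read against those of all 13596 tested genes, by edgeR at an adjusted p under 0.05. Between daily prednisone and vehicle, 0 of 8 were called in males, where 6.46% of all genes were called. In females 1 of 8 was called, Npas2, lower, against 0.382% of all genes. Over both sexes 3 of 8 were called, Npas2 lower and Per2 and Per3 higher, against 15% of all genes. The median log2 difference of the 8 genes was 0.20 in males and 0.31 in females, where the median of all genes was 0.05 and 0.01. In males, 3 of 8 genes had all daily libraries above all vehicle libraries and 0 had them below, against 16.4% and 17.1% of all genes. In females, 3 lay above and 1 below, against 12.9% and 10.2%. The female call of Npas2 was lost without female daily replicate 2, female daily replicate 3, female vehicle replicate 1 or female vehicle replicate 2. It was also lost in a fit of the compared groups alone, with the replicate block, with the adipocyte score as a covariate and with length and GC trends removed. In each of these fits 0 of all genes were called, apart from 1 gene without female vehicle replicate 1. Over both sexes the call of Per2 was lost without female daily replicate 2 or female vehicle replicate 2 and with no filter on low counts, while those of Npas2 and Per3 were made without any 1 library.

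With the adipocyte score, the mean log2 CPM of the 10 adipocyte markers, as a covariate, the differences between daily and vehicle libraries over both sexes were -0.996 ± 0.37 for Npas2, 1.61 ± 0.63 for Per2 and 1.22 ± 0.40 for Per3. The standard errors were larger than without the covariate, and 0 of 8 and 0 of all genes were called. Against weekly prednisone, where 2 of the 10 markers were higher in daily libraries by direction and 1 was called higher, the differences with that covariate were -0.99 ± 0.25 for Npas2 and 0.99 ± 0.27 for Per3, and both kept their calls.

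Weekly prednisone gave no call among the 8 genes in males, in females or over both sexes, as it gave none among all genes (0%, 0% and 0%). At an unadjusted p under 0.05, 777, 1083 and 1492 of all genes passed in edgeR, and DESeq2 called 1, 152 and 183 genes, none of the 8 among them. The largest differences from vehicle by size were those of Per2, at 0.80 ± 0.58 in males and 0.70 ± 0.59 in females. Arntl differed by -0.65 ± 0.38 in females. For none of the 8 genes did the 3 weekly libraries lie all above or all below the vehicle libraries of their sex, beside 7.76% of all genes above and 8.97% below in males and 4.94% and 3.13% in females. Female weekly replicate 1 stood apart from the other 2, with lower Per1, Per2, Per3 and Cry2 and higher Arntl and Cry1. Without it the female difference of Per2 was 1.13 ± 0.54 and that of Arntl -0.95 ± 0.42, and neither was called. The female vehicle libraries mattered as much. The weekly difference ran from 0.35 without female vehicle replicate 1 to 1.63 without female vehicle replicate 3 for Per2, and from 0.06 to 1.27 without the same libraries for Per3.

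Daily and weekly prednisone were compared directly, and these comparisons share their daily libraries with the ones above. The 2 regimens also differed in the time since the last dose, which was 2 days in weekly mice, whereas daily mice were dosed each day. The part of that time was not tested. In males 0 of 8 were called and in females 0 of 8, as among all genes (0% and 0%), with 1829 and 2401 genes at an unadjusted p under 0.05 and 225 and 546 called by DESeq2. Over both sexes 2 of 8 were called, Npas2 lower and Per3 higher, against 8.17% of all genes. In males 2 of 8 genes had all daily libraries above all weekly libraries and 0 below, against 11.9% and 12.7% of all genes. In females 2 lay above and 1 below, against 9.83% and 7.34%. Daily and weekly females with the same replicate number correlated at 0.439 to 0.501 in their deviations over genes. With the planned block of the replicate number over all libraries of a sex, 0 of 8 and 0 of all genes were called in females. Once the number entered as a block for these 6 libraries alone, a choice made after the correlations were seen, Npas2 was called lower in females, at -2.20 ± 0.37, among 522 genes called (3.84%). The call over both sexes was lost for both genes without female daily replicate 2, female daily replicate 3, male daily replicate 3 or male weekly replicate 1, where 0 of 8 were called, and with length and GC trends removed. That of Per3 alone was lost without female weekly replicate 1, male daily replicate 2, male weekly replicate 2 or male weekly replicate 3.

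**Figure D2:**
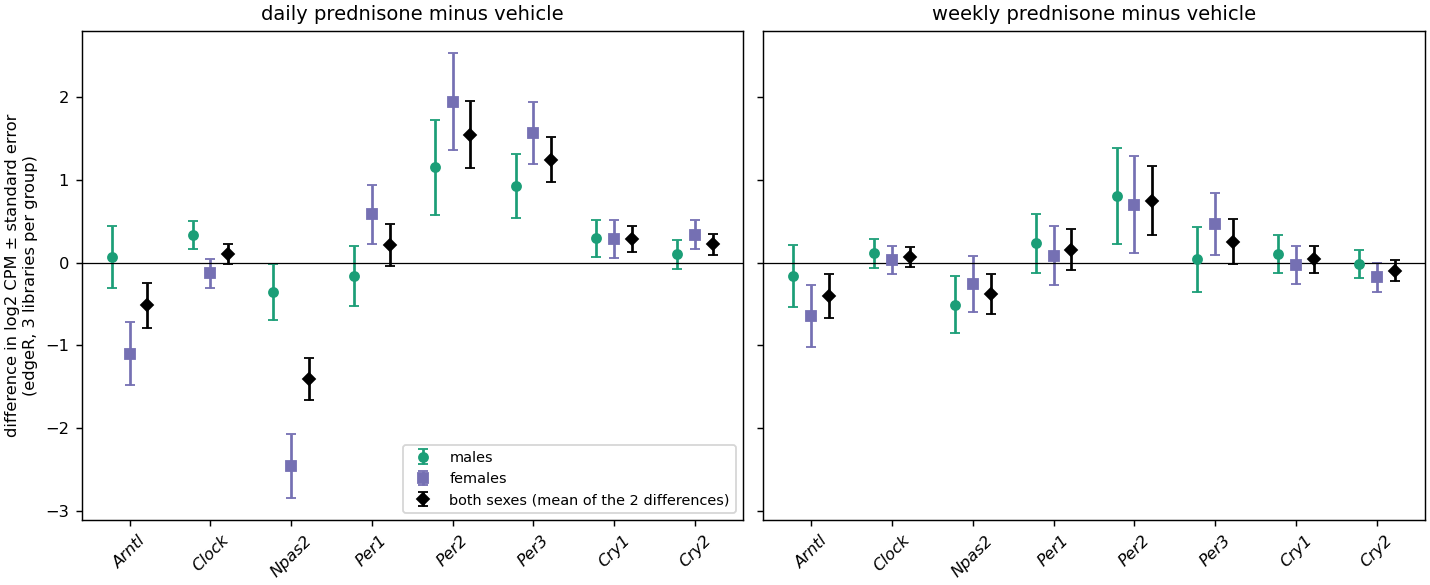
Difference in log2 CPM from vehicle for each core clock gene after daily (left) and weekly (right) prednisone, in males, in females and as the mean of both; points are edgeR estimates and bars standard errors, with 3 libraries per group. Npas2 in females after daily prednisone, at -2.46, is the farthest from 0.

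The sexes were compared by the difference between the female and the male response. For the daily response, 0 of 8 genes and 0% of all genes were called by edgeR (638 of all genes at an unadjusted p under 0.05, and 2 genes by DESeq2). The female minus male difference on the log2 scale was -2.10 ± 0.51 for Npas2 and -1.16 ± 0.53 for Arntl. It was -0.46 ± 0.24 for Clock, 0.75 ± 0.51 for Per1, 0.79 ± 0.81 for Per2, 0.64 ± 0.53 for Per3, -0.01 ± 0.32 for Cry1 and 0.23 ± 0.25 for Cry2. For the weekly response, 0 of 8 and 0% of all genes were called (357 of all genes at an unadjusted p under 0.05, and 0 genes by DESeq2), and the difference was largest in size for Arntl, at -0.48 ± 0.53. A response in 1 sex was thus not shown to differ from that in the other for any of the 8 genes.

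Between female and male vehicle libraries, 0 of 8 genes were called, against 0.765% of all genes called, and 0 of the 8 passed an unadjusted p under 0.05. DESeq2 called 235 genes, with none of the 8 among them. The largest difference was that of Per3, 0.78 ± 0.39 (edgeR adjusted p = 0.507), which rested on female vehicle replicate 3 and was -0.03 ± 0.28 without it. The same library moved Per2 the other way, from -0.23 ± 0.60 to -1.17 ± 0.61 without it, and without female vehicle replicate 1 the difference of Per2 was 0.12. Female vehicle replicate 3 stood apart from the other 2 vehicle females in both arms of the loop, with Arntl at less than either and Per2 and Per3 at more.

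The ratio of Arntl to Per2 counts sets the 2 arms against each other inside 1 library. In males its log2 value was 2.30, 2.58 and 1.93 with vehicle, 0.94, 1.42 and 1.81 with weekly and 0.84, 1.19 and 1.54 with daily prednisone. The male vehicle libraries lay above all male weekly and daily libraries. How often the ratio of another gene pair does so was not counted. In females the log2 value was 4.03, 3.74 and 0.66 with vehicle, 3.43, 0.39 and 0.65 with weekly and 1.43, -1.58 and -1.13 with daily prednisone. In each female group 1 library stood more than 2 log2 units from the other 2, replicate 3 with vehicle and replicate 1 with weekly and daily prednisone, and only 2 libraries of the 18, both female daily, had fewer Arntl than Per2 counts.

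**Figure D3:**
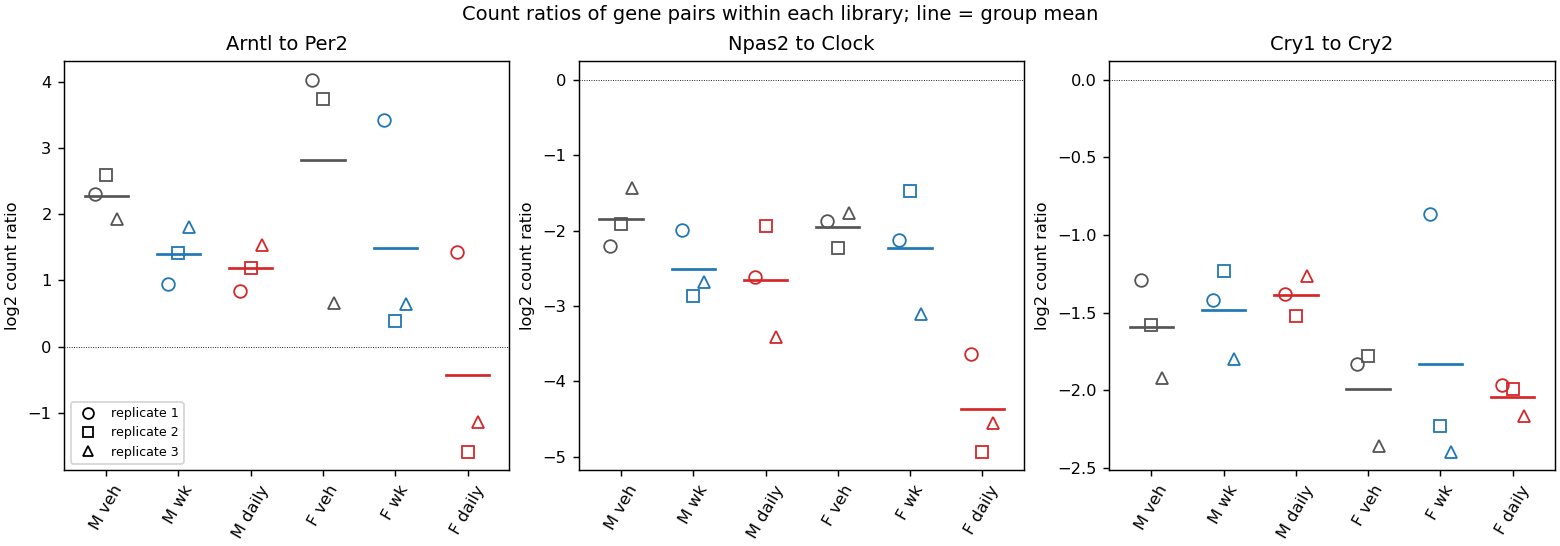
Log2 ratio of counts within each library for Arntl to Per2, Npas2 to Clock and Cry1 to Cry2, by group; shapes give the replicate number, lines the group mean of 3 libraries, and the dotted line equal counts. The female groups spread over more than 2 log2 units for Arntl to Per2, and the female daily libraries lie lowest for Npas2 to Clock.

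Variation between mice of the same group was then described with each library's deviation from its group mean, which no treatment difference enters. Over the 18 libraries the deviations of Arntl correlated with those of Per2 at a Pearson r of -0.785 (Spearman rho -0.777), of Per3 at -0.709 (rho -0.5996), of Per1 at -0.508 (rho -0.577) and of Cry1 at 0.575 (rho 0.558). In these libraries the Period genes mostly stood below their group mean where Arntl stood above its own, and Cry1 above. Genes outside the clock lists deviated with Arntl more strongly, with r up to 0.940 (Abra) and down to -0.928 (Wdr13). How many of all genes reach the r of the Period genes and Cry1 was not counted. Exact permutation within groups over 46656 arrangements, two-sided and adjusted over 7 pairs by the Benjamini-Hochberg method, gave p = 0.0496 for Per2, 0.0485 for Per3, 0.0388 for Per1 and 0.0357 for Cry1. The unadjusted values were 0.0284, 0.0208, 0.0111 and 0.00510. By rank, the exact adjusted p was 0.05001 for Per2, Per1 and Cry1 and 0.0694 for Per3, none of which passed 0.05. That null takes the groups as independent, whereas same-numbered daily and weekly females deviated together. When these were permuted together, over 7776 arrangements, the exact adjusted p was 0.0423 for Cry1, 0.114 for Per1 and 0.119 for Per2 and Per3, so that only Cry1 passed, and by rank none did. The other 3 pairs did not pass, with an r of 0.415 for Clock (rho 0.426, exact adjusted p = 0.237), 0.275 for Npas2 (rho 0.255, 0.381) and -0.384 for Cry2 (rho -0.457, 0.125).

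The sexes were then taken separately. In the 9 female libraries alone the r with Arntl was -0.917 for Per2, -0.8002 for Per3, -0.616 for Per1 and 0.672 for Cry1. In the 9 male libraries alone it was 0.337, 0.223, -0.174 and 0.703, and none of the 7 male pairs passed. The difference between the sexes was not tested. Without the 2 libraries farthest from the median of Arntl, female daily replicate 1 and female vehicle replicate 3, the r over the other 16 was -0.671 for Per2, -0.595 for Per3, -0.552 for Per1 and 0.632 for Cry1. The signs held without any 1 library for these 4 genes, but leaving out a female library gave 0 pairs past the threshold in 7 of 9 cases, against 0 of 9 cases for a male library. Over the 18 such fits, Cry1 passed in 11, Per1 and Per3 in 8 each and Per2 in 5.

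Among the repressors, Per1 and Cry2 deviated together at an r of 0.939, Per1 and Per2 at 0.801 and Per2 and Cry2 at 0.789 over the 18 libraries. Per3 followed Per2 at 0.667 and Per1 at only 0.349. These correlations are descriptions, since all genes of a library share its animal, its preparation and its scaling.

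**Figure D4:**
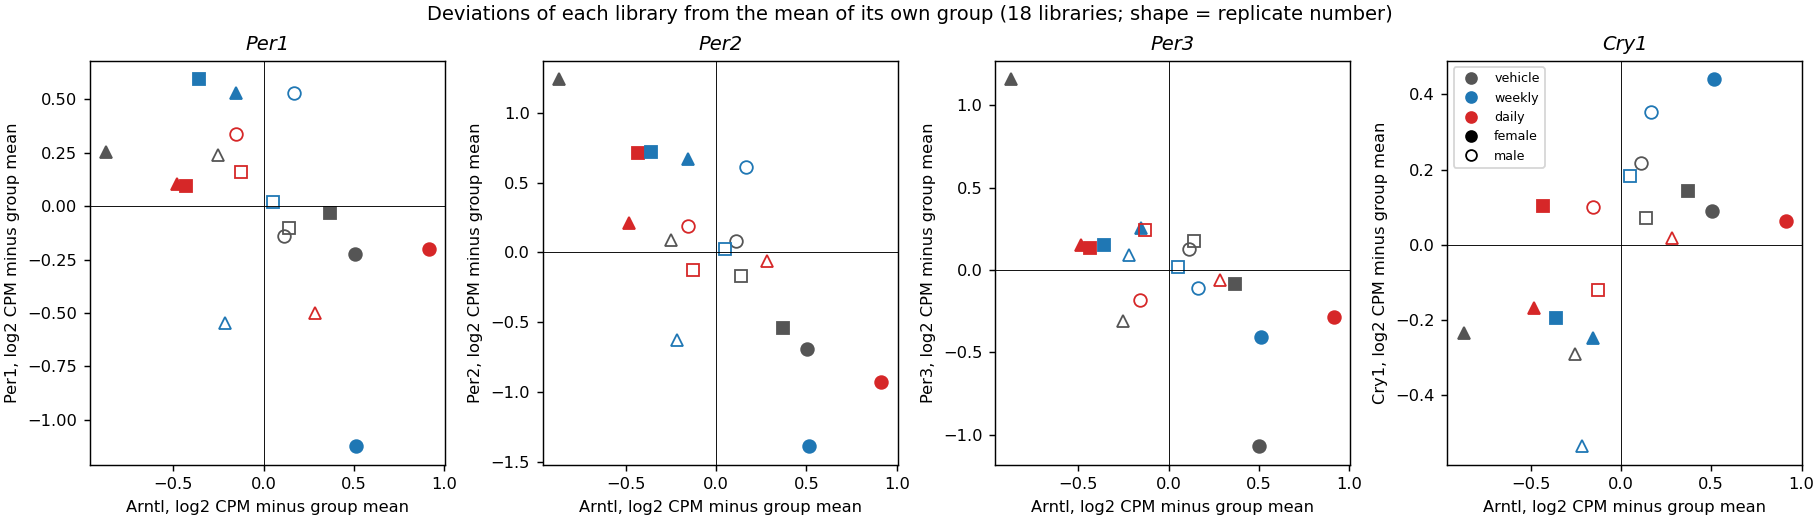
Deviation of Per1, Per2, Per3 and Cry1 from the group mean (y, log2 CPM) against that of Arntl (x, log2 CPM) in 18 libraries; colours give the treatment, filled points females, open points males, and shapes the replicate number. Female libraries run from high Arntl with low Per2 to low Arntl with high Per2 (r = -0.917), while male libraries cover a narrower range of Arntl and follow no such line.

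The other clock genes were followed as a list of 27 that feed the loop or are driven by it, of which 25 passed the filter on low counts. Between daily prednisone and vehicle, 1 of 25 was called in males (Sirt1, higher), 1 in females (Nr1d2, higher) and 5 over both sexes (Nr1d2, Rora, Nampt, Prkaa1 and Sirt1, all higher), beside 6.46%, 0.382% and 15% of all genes. Against weekly prednisone 4 of 25 were called over both sexes (Nr1d2, Rora, Tef and Sirt1, all higher), beside 8.17% of all genes, and weekly prednisone against vehicle gave 0. The median log2 difference of the 25 genes between daily and vehicle libraries was 0.15 in males and 0.32 in females, beside 0.05 and 0.01 over all genes.

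Nr1d2 and Nr1d1 encode the REV-ERB receptors that repress Arntl. Nr1d2 was 46.2, 54.8 and 68.8 CPM in female vehicle, 61.6, 63.8 and 68.99 in female weekly and 96.4, 95.3 and 117 in female daily libraries. The daily libraries lay above the other 2 groups, by 0.86 ± 0.16 over vehicle, and in males the difference was 0.33 ± 0.16. For Nr1d1 the daily difference was -0.50 ± 0.28 in females and 0.23 ± 0.28 in males, with overlapping groups in both. Rora, which encodes a receptor that activates Arntl, differed by 0.36 ± 0.11 over both sexes.

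Dbp, a direct E-box target whose mRNA has one of the largest daily swings of all genes, was 4.06, 12.2 and 50.3 CPM in female vehicle, 12.9, 34.7 and 23.7 in female weekly and 73.95, 56.4 and 75.2 in female daily libraries. Female vehicle replicate 3, which stood apart for Arntl, Per2 and Per3, also held more Dbp than the other 2. In males it was 9.48, 11.4 and 17.2 CPM with vehicle, 8.97, 9.22 and 17.8 with weekly and 8.55, 9.997 and 12.04 with daily prednisone, with overlapping groups. The daily difference was 1.62 ± 0.63 in females and -0.32 ± 0.65 in males, and neither was called. Tef, which encodes a second PAR bZIP factor, differed by 0.41 ± 0.11 between daily and weekly libraries over both sexes.

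Sirt1 and Nampt link the clock to NAD: SIRT1 is a deacetylase that uses it and NAMPT makes it. Sirt1 was 9.04, 12.3 and 11.7 CPM in male vehicle, 14.9, 8.84 and 11.01 in male weekly and 29.3, 32.5 and 24.5 in male daily libraries. The male daily libraries lay above the rest, by 1.39 ± 0.38 over vehicle. In females the daily libraries held 11.1, 44.6 and 31.96 CPM against 11.4, 10.1 and 13.97 with vehicle. Female daily replicate 1 lay at the vehicle level, so that the female groups overlapped. Nampt differed by 0.47 ± 0.12 and Prkaa1, a catalytic subunit of the kinase AMPK, by 0.38 ± 0.11 between daily and vehicle libraries over both sexes. Between the vehicle groups, 3 of the 25 passed an unadjusted p under 0.05 in edgeR. Only Bhlhe41, which encodes the E-box repressor DEC2, was called there, with a female minus male difference of -1.07 ± 0.22 (edgeR adjusted p = 0.0262). Its 3 female vehicle libraries at 13.9, 19.02 and 27.3 CPM lay below the male ones at 53.99, 39.3 and 32.9.

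The genes most like Arntl and Per2 across the 18 libraries were found by Pearson r over 12616 named genes, on deviations from the group mean. The core clock genes themselves were left out of this search. For Arntl the 5 highest were Abra, Mlip, Sugp2, Xrcc1 and Nob1, with r from 0.940 down to 0.927, and the 5 lowest Wdr13, Fkbp7, Colec12, Maged1 and Scara3, with r from -0.928 up to -0.886. For Per2 the 5 highest were Relb, Slc25a30, Mir155hg, Ada and Tbl1x, with r from 0.962 down to 0.932, and the 5 lowest Bnip1, Rbm20, Pank4, Alpk3 and Paip2, with r from -0.938 up to -0.909. None of these 20 genes is on the list of other clock genes. On log2 CPM itself, in which the differences between groups take part, the 5 lowest for Arntl were Gstt1, Ccdc152, Dbp, H2-K1 and Tmem131l, with r from -0.875 up to -0.811. For Per2 the 5 highest were Coq10b, Hspa1b, Hnrnpk, Hspa1a and Hlf, with r from 0.902 down to 0.866, and the 5 lowest Dctn6, Anapc13, Immp1l, Psma7 and Nme6, with r from -0.880 up to -0.864. Of these 15, Dbp and Hlf, which encode PAR bZIP factors, are on the list of other clock genes.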

How the data were processed

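Gene-level read counts, as deposited by the authors, were whole numbers with no normalization; reads had been aligned to mm10. The processing notes of the submitters name TopHat2 2.1.0, Bowtie2 2.2.6, HTSeq and the builds mm10 and mm9. The strand setting is not given in the sources used here. Of 43430 identifiers, 42462 matched a symbol. Genes passing filterByExpr (minimum count 10) were scaled by TMM. The 6 group means were estimated jointly from the 18 libraries by the robust quasi-likelihood method of edgeR 4.0.16 in R 4.3.3. Adjustment over 13596 genes followed Benjamini and Hochberg, and a gene was called at an adjusted p under 0.05. The standard error was derived from each log2 difference and its F statistic. The edgeR fit, for the daily comparison in females and the sex difference of the daily response, was tested on simulated data. So was the permutation test, and the other steps were not. Deviations were taken on log2 CPM and correlated in Python 3.11.15. The study gives 3 animals per group, so p values measure the spread between mice.

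The core clock genes, the list of other clock genes and the marker lists were chosen with earlier results of these data known. By rule, the text names the 8 genes, Nr1d1, Nr1d2 and Dbp always, other listed clock genes where called, and the 5 highest and 5 lowest correlations with Arntl and Per2, on deviations and on log2 CPM; the highest with Arntl on log2 CPM are not reported here. The 3 promoters shown were chosen after their values were seen.

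Replicate numbers came from the titles, which give them no meaning. In 3 of 3 pairs, same-numbered females on daily and weekly prednisone correlated at 0.439 to 0.501 in their deviations over genes. These 3 values are not independent, since deviations in a group are taken from its own mean. The submitters' sample labels carry different numbers within each of these pairs. The main fit did not pair these females, and they were paired only in the alternatives with a block or with permutation together. The other 15 same-numbered pairs ranged from -0.318 to 0.279. Alternatives were DESeq2 1.42.0, its size factors in edgeR, limma-voom (limma 3.58.1), no filter, a minimum count of 50, the compared groups only, the replicate block, the adipocyte score as covariate, removal of the trends on length and GC content in each library (splines with 5 degrees of freedom), and omission of each library. The block over the daily and weekly females alone, and the permutation of these together, were added after seeing the data. Promoters came from RefSeq on GRCm38.p6 and exons from GENCODE release 21.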

Additional observations from a re-analysis of the deposited data

How the results depend on the processing

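The number of core clock genes called depended on the fit. Between daily and vehicle males it was 2 (Per2 and Per3) in a fit of the compared groups alone, with 12.1% of all genes called. The number was 0 in the other fits, and the main fit called 6.46% of all genes. In females it was 3 by DESeq2 and 2 by limma-voom, against 1, and 0 in a fit of the compared groups alone, with the replicate block, with the adipocyte score as a covariate and with length and GC trends removed; without 1 library it was 0 to 2. Npas2 kept its call there without female daily replicate 1 or female vehicle replicate 3 and lost it without each of the other 4. In those 4 fits, 0 or 1 of all genes were called. Over both sexes the count of core clock genes was 0 with the adipocyte score, 2 with no filter and 2 to 4 without 1 library. Npas2 and Per3 were called in 12 of 12 such fits, Per2 in 10, all but those without female daily replicate 2 or female vehicle replicate 2, and Arntl in 1, without female daily replicate 1. Between daily and weekly females it was 1 with no filter, with a minimum count of 50, with the adipocyte score and with the replicate block over these libraries, a choice made after seeing the data, and 0 to 1 without 1 library. Over both sexes it was 1 with no filter and in the compared groups alone, 0 with length and GC trends removed, and 0 to 2 without 1 library. The replicate block changed no other call. The number of all genes called moved by over 1.5 times as well. In daily males it went from 878 to 1383 by DESeq2 and 1530 in the compared groups alone. With the adipocyte score it was 21 there, and with length and GC trends removed 68. In daily females it went from 52 to 530 by DESeq2, 198 with a minimum count of 50 and 29 with no filter. It was 0 there in the compared groups alone, with the replicate block, with the adipocyte score and with those trends removed. Over both sexes it went from 2033 to 0 with the adipocyte score and 785 with those trends removed. The number of correlations with Arntl past the threshold was 0 in males alone, against 4, and 0 to 4 without 1 library. It was 1 (Cry1) with same-numbered daily and weekly females permuted together, a choice made after seeing the data. In males alone the sign reversed for Npas2 (-0.462), Per2 (0.337), Per3 (0.223) and Cry2 (0.171), and without female daily replicate 1 for Npas2, whose r ranged from -0.0661 to 0.474 without 1 library. The sex difference of the weekly response reversed for Per2 without female vehicle replicate 3, with a range of -0.45 to 0.83 without 1 library, and was not called. The causes were not tested, apart from fewer libraries in the fits that left some out. The lowest count, 9 for Npas2, limits the precision of that gene.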
